A study of Mus musculus with 18 samples.

Results

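The 10 genes described here carry fatty acids into a cell and prepare them for use: Cd36, Lpl and Slc27a1 act in uptake, Fabp3, Fabp4 and Fabp5 bind fatty acids in the cytosol, and Acsl1, Acsl3, Acsl4 and Acsl5 activate them. They were chosen by gene name, 10 of 45706 genes in the count table, 26427 of them with at least 1 count among the libraries. The cells were BMC, 1 immortalised line of murine brown preadipocytes, differentiated in culture and used on day 7. At confluence every culture had received isobutylmethylxanthine (0.5 mM), indomethacin (0.125 mM), dexamethasone (1 µM), insulin (20 nM) and triiodothyronine (1 nM), and later the last pair alone. Libraries labelled 0 h were not induced, and those labelled 4 h and 24 h came from cells given 1 µM norepinephrine. Each labelled time had 6 libraries, numbered 1 to 6 in the titles, so that each number occurred once at each time. The question of the series was how transcripts change when norepinephrine induces thermogenic lipolysis. The genes were described by labelled time and, because libraries of some numbers resembled each other more than libraries of 1 time did, also by 3 sets of 6 libraries that join numbers 1 and 4, numbers 2 and 5, and numbers 3 and 6.

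Lipoprotein lipase, the product of Lpl, releases fatty acids from the triglycerides of circulating lipoproteins. CD36 is a plasma membrane receptor that promotes their entry, and SLC27A1, also called FATP1, is a fatty acid transport protein that also has acyl-CoA synthetase activity. Fatty acid binding proteins carry the hydrophobic chains through the cytosol, and long-chain acyl-CoA synthetases join them to coenzyme A, which traps them in the cell and makes them substrates for oxidation or for storage as triglyceride. In brown adipocytes norepinephrine raises cAMP and sets off lipolysis, and fatty acids both activate and fuel uncoupled respiration.

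RefSeq promoter sequences (build GRCm38.p6, from 250 bases before to 50 bases after a transcription start) were matched by symbol to 7 of the 10 genes, with 10 windows in all. The Cd36 and Acsl3 windows are shown because both genes fell in step over the 3 sets described below, and the Acsl4 window because that gene followed another course. Capitals mark CCAAT and GGGCGG on either strand (ATTGG and CCGCCC are the same motifs on the other strand). In the Acsl3 window 1 CCAAT directly adjoins a GGGCGG, and in the Acsl4 window the 2 matches overlap. The Cd36 window lies on the minus strand at chr5:17835847-17836146, inside the annotated gene, at one of its starts. The Acsl3 window lies on the plus strand at chr1:78657575-78657874, and the Acsl4 window on the minus strand at chrX:142390486-142390785.
Cd36: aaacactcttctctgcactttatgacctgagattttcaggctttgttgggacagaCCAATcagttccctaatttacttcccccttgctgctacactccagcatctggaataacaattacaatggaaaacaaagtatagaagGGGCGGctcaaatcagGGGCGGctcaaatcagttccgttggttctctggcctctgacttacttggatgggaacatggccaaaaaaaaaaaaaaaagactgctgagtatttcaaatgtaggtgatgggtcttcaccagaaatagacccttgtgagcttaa
Acsl3: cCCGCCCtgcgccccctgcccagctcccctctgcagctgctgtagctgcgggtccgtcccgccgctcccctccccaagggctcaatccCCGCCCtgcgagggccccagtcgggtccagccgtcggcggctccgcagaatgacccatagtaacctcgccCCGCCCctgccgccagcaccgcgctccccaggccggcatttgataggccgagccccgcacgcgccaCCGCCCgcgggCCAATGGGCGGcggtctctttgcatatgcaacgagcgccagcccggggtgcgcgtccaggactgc
Acsl4: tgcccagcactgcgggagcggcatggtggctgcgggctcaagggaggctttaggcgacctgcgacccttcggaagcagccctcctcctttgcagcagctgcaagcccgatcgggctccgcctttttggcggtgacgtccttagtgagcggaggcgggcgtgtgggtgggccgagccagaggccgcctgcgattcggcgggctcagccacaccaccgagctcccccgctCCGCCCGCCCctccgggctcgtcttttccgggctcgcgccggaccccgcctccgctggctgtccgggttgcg
The Cd36 window was 43.0% G and C, against 74.0% for Acsl3, 71.7% for Acsl4 and a median of 52.7% over 32851 mouse windows of the same length. CCAAT occurred in 6 of the 10 windows and in 37.4% of all windows. GGGCGG also occurred in 6 of the 10, against 35.7% of all. The TATA box TATAAA (13.6% of all windows), the cAMP response element TGACGTCA (1.79%), the palindromic C/EBP element TTGCGCAA (0.183%) and the direct repeat AGGTCANAGGTCA (0.0396%) were in none of the 10. Of the windows shown, those of Cd36 and Acsl3 held both marked motifs and that of Acsl4 held GGGCGG alone. Among windows not shown, 1 of Slc27a1 held both and its others 1 motif each. Each Acsl1 window held 1 motif, the Acsl5 window held CCAAT alone and the Fabp3 window neither. Whether motifs go with the course over the sets was not tested. A match describes the letters of a window and is not a binding site.

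Library totals ran from 7010742 expected counts (24 h replicate 5) to 26501223 (0 h replicate 1). In 24 h replicate 5, 41.5% of the counts fell on 2 noncoding RNA genes, Yam1 and Gm26917, against 6.78% to 10.6% in the other 17 libraries. Levels are given as CPM, relative to the library total scaled by the trimmed mean of M-values, and differences as log2 fold changes from edgeR with Benjamini-Hochberg adjustment over all genes tested. A gene is called where its adjusted p is under 0.05. Whether libraries of 1 time are separate cultures is not stated in the labels. The p-values rest on the spread between libraries, which may be technical. For sets, whose model holds number and labelled time, that is the spread within a number, not between the numbers of a set. The sets were proposed with these data in view, so their p-values only describe a difference against that spread.

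Compared per kilobase of annotated exon, 3 of the 10 genes were abundant. Over the 18 libraries Fabp4 had a mean of 512.6 ± 84.6 CPM per kilobase (SD, n = 18), Lpl 402 ± 92.8 and Cd36 246 ± 62.8. Fabp5 (36.2 ± 11.2) and Acsl1 (35.5 ± 8.92) followed, then Acsl3 (20.0 ± 8.19), Acsl4 (17.7 ± 4.83), Acsl5 (14.98 ± 3.03) and Slc27a1 (5.53 ± 0.679). These SDs hold the differences between the 3 sets of numbers, and within sets the order turned. Fabp4 was above Lpl in numbers 1 and 4 (617 ± 18.4 against 418 ± 9.18 CPM per kilobase; SD, n = 6) and in numbers 3 and 6 (487 ± 47.6 against 289.5 ± 19.4), but below it in numbers 2 and 5 (434.5 ± 24.0 against 499 ± 44.8). Acsl3 was above Acsl4 in numbers 1 and 4 (31.0 ± 0.794 against 18.4 ± 0.639) and below it in numbers 2 and 5 (16.4 ± 1.55 against 22.9 ± 1.89). In numbers 3 and 6 the mean of Acsl3 was again the higher, with a smaller gap (12.7 ± 0.584 against 11.8 ± 0.584). Fabp5 was above Acsl1 in numbers 1 and 4 (51.1 ± 1.46 against 46.7 ± 1.46). Their means lay within 1 SD in numbers 2 and 5 (26.2 ± 1.15 and 26.2 ± 1.21). In numbers 3 and 6 they also did, with Acsl1 the higher (31.2 ± 2.67 and 33.6 ± 2.90). These SDs are between libraries. The order inside single libraries, where the genes were measured together, was not compared. The order also turned on the length used: with the longest transcript Lpl (1024 CPM per kilobase) stood above Fabp4 (543.9) and Acsl1 (65.6) above Fabp5 (39.8). Fabp3, the heart-type binding protein, was lowest in each order, at 0.410 ± 0.208 CPM per kilobase. It had 126 counts over all 18 libraries, from 0 in 24 h replicate 5 to 17 in 24 h replicate 6 with a median of 7, and did not pass the filter on low counts. A count of 0 in 24 h replicate 5 allows up to 3 counts, or 0.995 CPM, which covers every other library's level. Whether Fabp3 differed between groups was not settled at these counts. A fit without the filter held all 10 genes and called Fabp3 in no comparison of times or sets. The main fit tested the 9 other genes.

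By labelled time, levels of the 9 tested genes overlapped in every comparison. Cd36 ranged from 638.5 to 1129 CPM with a median of 890.9 in libraries labelled 0 h. It ranged from 559 to 1179 CPM (median 927.5) at 4 h and from 533 to 1155 CPM (median 849) at 24 h. The 3 times thus covered nearly the same range for this fatty acid receptor. Lpl ranged from 3141 to 5484 CPM (median 4365) at 0 h, from 2743 to 5948 CPM (median 4348) at 4 h and from 2808 to 5268 CPM (median 4412) at 24 h. Acsl1 ranged from 280.1 to 499.5 CPM (median 375) at 0 h, from 273 to 501 CPM (median 352) at 4 h and from 252 to 492 CPM (median 328.5) at 24 h. Fabp4 ranged from 1912 to 2884 CPM (median 2178) at 0 h, from 1878 to 2759 CPM (median 2190.0) at 4 h and from 1807 to 2802 CPM (median 2222) at 24 h. For none of these genes did the libraries of 1 time stand clear of the others. Non-overlapping times were seen for no member and for 0.0676%, 0.0406% and 0.0% of all genes in the 3 comparisons. No member, and 0.0% of 14788 genes tested, was called at 4 h against 0 h, at 24 h against 0 h or at 24 h against 4 h. Without adjustment 173, 158 and 137 genes had a p under 0.05 in these comparisons, none of them a member, and DESeq2 called 0 genes as well, with 190, 160 and 121 before adjustment. The members' log2 fold changes lay between -0.05 and 0.09 at 4 h against 0 h and between -0.11 and 0.13 at 24 h against 0 h, with the smallest adjusted p at 1.0 in edgeR's quasi-likelihood test.

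Blocking on the replicate number, which takes up the differences between numbers, narrowed the intervals. The 95% interval of the Acsl3 difference at 24 h against 0 h went from -0.72 to 0.64 without the block to -0.12 to 0.03 with it. No member was called with the block either. Of all genes 0.0% were called at 4 h against 0 h, 0.00676% (1 gene) at 24 h against 0 h and 0.0% at 24 h against 4 h. Without adjustment, 1461, 1155 and 757 of 14788 genes had an edgeR p under 0.05 with the block. Without the block these counts were 173, 158 and 137. Among members 0, 1 and 1 had such a p with the block, Acsl1 in both cases. The member nearest to a call was Acsl1, a synthetase of outer mitochondrial and endoplasmic reticulum membranes, whose level at 24 h against 0 h differed by -0.12 ± 0.04 (log2, SE) with a p of 0.00312 and an adjusted p of 0.322 in edgeR. Its log2 level was lower at 24 h than at 0 h in 5 of 6 numbers and lower at 24 h than at 4 h in 6 of 6. The blocked interval of the latter difference, -0.16 to -0.01, also left out 0, with a p of 0.0332 and an adjusted p of 0.92 in edgeR. Cd36 was lower at 24 h than at 4 h in 5 of 6 numbers, with a difference of -0.09 ± 0.05 and an adjusted p of 0.92.

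**Figure D1:**
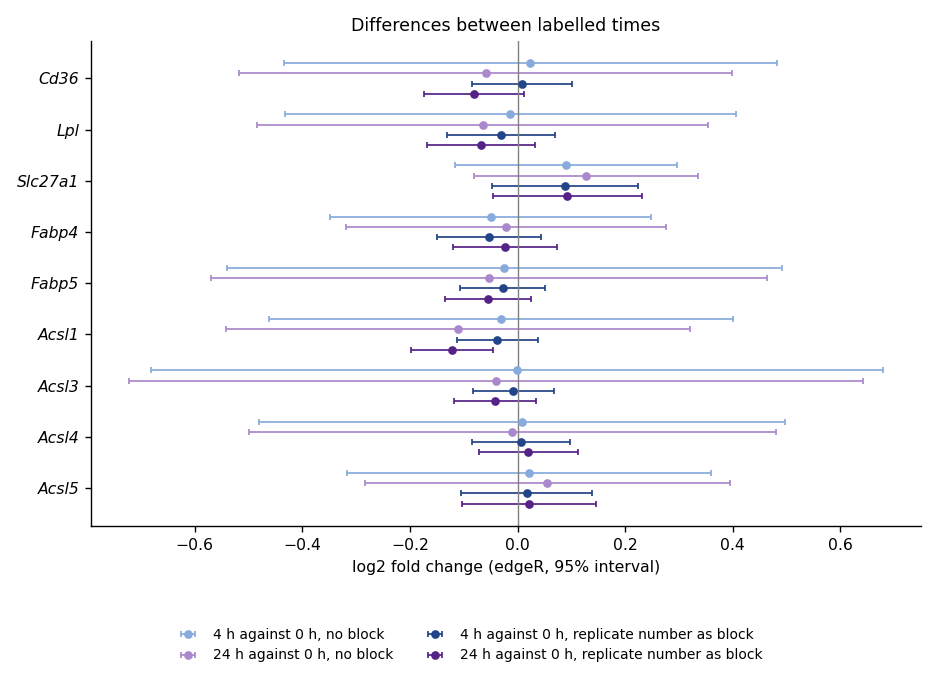
Log2 fold changes of the 9 tested genes at 4 h and at 24 h against 0 h (horizontal axis; points are edgeR estimates, bars 95% intervals), without a block and with a block on replicate number. Intervals with the block are narrower, and the estimates at 24 h against 0 h stay between -0.12 and 0.09; of the intervals drawn, which do not include 24 h against 4 h, only the blocked Acsl1 interval at 24 h against 0 h leaves out 0.

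Between the sets of replicate numbers the same genes differed widely. The labelled time accounted for 2.15% or less of the variance of log2 CPM for 8 of the 9 members and for 12.2% for Slc27a1, with a median of 3.78% over all genes tested. The set accounted for 83.9% (Acsl5) to 97.6% (Acsl3) in those 8 members and for 27.8% in Slc27a1, with a median of 62.7% over all genes. The sets were proposed with these data in view, so these shares, and the p-values between sets given below, describe the libraries. What the sets stand for is not given in the labels, where all 18 libraries carry the same batch number.

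**Figure D2:**
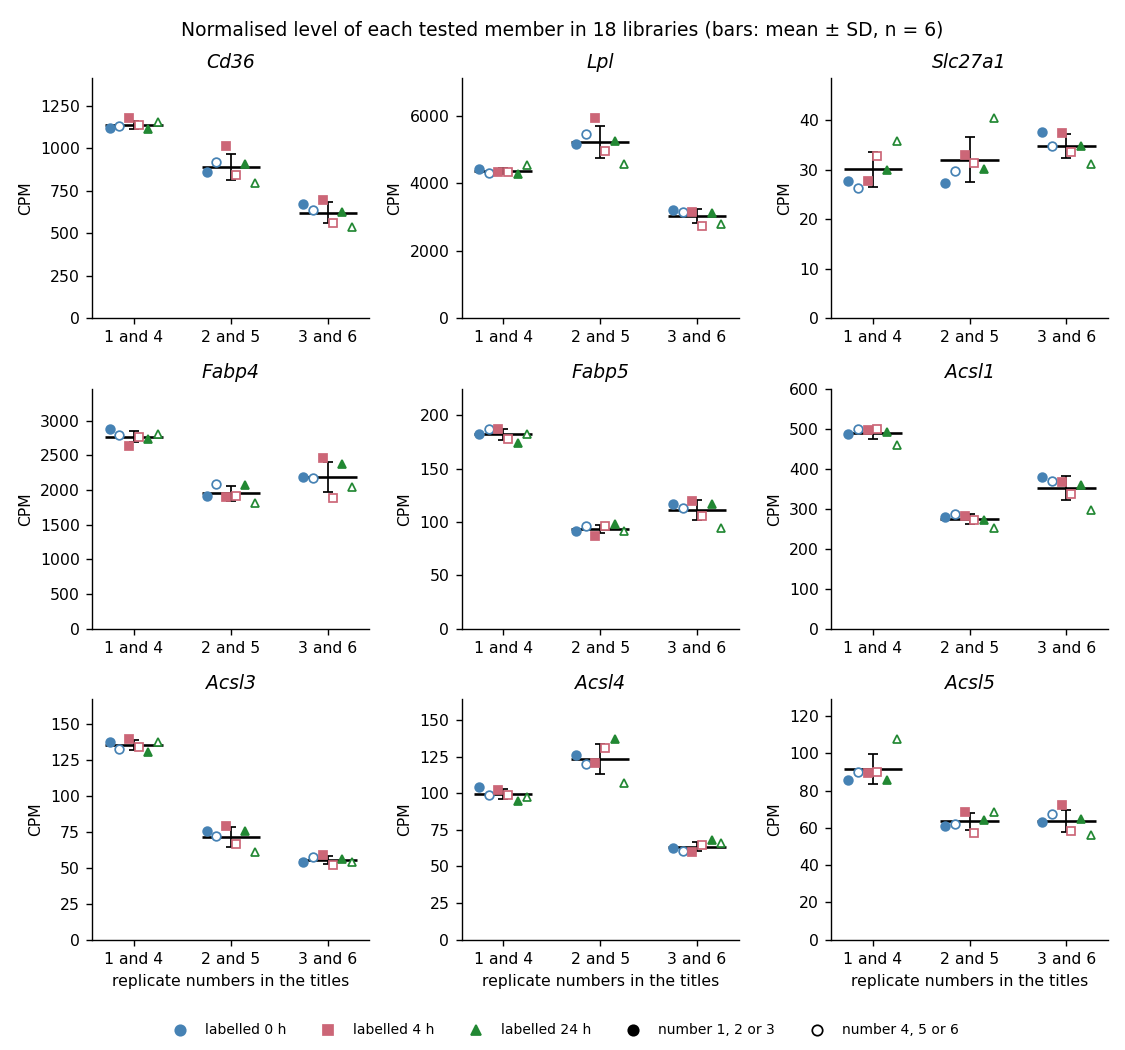
CPM of the 9 tested genes (vertical axes, from 0) in the 18 libraries by set of replicate numbers (horizontal axes). Symbols give the labelled time, filled symbols the lower and open symbols the higher number of a set, and bars the mean ± SD of 6 libraries. Cd36 and Acsl3 step down over the sets, Lpl and Acsl4 are highest in numbers 2 and 5, and Fabp4, Fabp5 and Acsl1 are highest in numbers 1 and 4.

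Among the uptake genes, Cd36 fell over the sets and Lpl rose and then fell, while Slc27a1 changed little. Cd36 (chromosome 5, 17781690 to 17888801, minus strand, mm10) was at 1115 to 1179 CPM with a median of 1135 in numbers 1 and 4. It was at 793 to 1015 CPM (median 883) in numbers 2 and 5 and at 533 to 696 CPM (median 631) in numbers 3 and 6. No pair of sets overlapped. Against numbers 1 and 4, Cd36 was lower by a log2 fold change of -0.36 ± 0.05 (SE) in numbers 2 and 5 (edgeR adjusted p = 1.68e-07) and of -0.88 ± 0.05 in numbers 3 and 6 (edgeR adjusted p = 7.13e-15). The latter left 0.542 times the level of numbers 1 and 4. Numbers 3 and 6 were also below numbers 2 and 5, by -0.52 ± 0.05 (edgeR adjusted p = 2.81e-10).

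Lpl (chromosome 8, 68880491 to 68907448, plus strand) was at 4278 to 4547 CPM with a median of 4348 in numbers 1 and 4. It was at 4568 to 5948 CPM (median 5216) in numbers 2 and 5 and at 2743 to 3217 CPM (median 3138) in numbers 3 and 6. The lipase was thus highest in numbers 2 and 5, where the lowest library, 24 h replicate 5, stood just above the highest of numbers 1 and 4. Its log2 fold change was 0.26 ± 0.05 in numbers 2 and 5 against 1 and 4 (edgeR adjusted p = 7.17e-05). It was -0.53 ± 0.05 in numbers 3 and 6 against 1 and 4 (edgeR adjusted p = 6.86e-10) and -0.79 ± 0.05 against numbers 2 and 5 (edgeR adjusted p = 5.77e-13). Slc27a1 (chromosome 8, 71568882 to 71587302, plus strand) had medians of 28.9, 30.7 and 34.8 CPM in the 3 sets, and its ranges overlapped in each pair. Its log2 fold change was 0.23 ± 0.06 in numbers 3 and 6 against 1 and 4 (edgeR adjusted p = 0.00495), but with the higher numbers alone (6 against 4) it was 0.09 with an adjusted p of 0.438. Against numbers 2 and 5 it was 0.17 ± 0.07 (edgeR adjusted p = 0.0355). That call was lost with DESeq2 (adjusted p = 0.0594), with the higher numbers alone (0.709), and without 0 h replicate 2, 3, 5 or 6, 4 h replicate 3, 5 or 6 or 24 h replicate 2 (adjusted p from 0.054 to 0.146).

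Both binding proteins that were tested were highest in numbers 1 and 4. Fabp4 (chromosome 3, 10204088 to 10208576, minus strand), the adipocyte binding protein, was at 2636 to 2884 CPM with a median of 2777 there. It was at 1807 to 2090.0 CPM (median 1917) in numbers 2 and 5 and at 1878 to 2459 CPM (median 2178) in numbers 3 and 6. The last 2 sets overlapped, and neither reached the lowest library of numbers 1 and 4. The log2 fold changes against numbers 1 and 4 were -0.51 ± 0.05 for numbers 2 and 5 (edgeR adjusted p = 9.14e-10) and -0.35 ± 0.05 for numbers 3 and 6 (edgeR adjusted p = 5.33e-07). Fabp5 (chromosome 3, 10012548 to 10016607, plus strand), a binding protein first described in epidermis and also made by adipocytes, was at 174 to 188 CPM with a median of 183 in numbers 1 and 4. It was at 87.2 to 98.0 CPM (median 94.1) in numbers 2 and 5 and at 94.8 to 120.0 CPM (median 115) in numbers 3 and 6. Its level in numbers 2 and 5 was 0.515 times that of numbers 1 and 4, a log2 fold change of -0.96 ± 0.04 (edgeR adjusted p = 7.83e-17). In numbers 3 and 6 it was -0.71 ± 0.04 (edgeR adjusted p = 1.38e-14). Numbers 3 and 6 stood above numbers 2 and 5 by 0.16 ± 0.05 for Fabp4 (edgeR adjusted p = 0.00518) and by 0.24 ± 0.04 for Fabp5 (edgeR adjusted p = 1.03e-05). With the higher numbers alone both of these calls were lost, at adjusted p = 0.463 and 0.0626.

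The 4 acyl-CoA synthetases took different courses. Acsl1 (chromosome 8, 46471037 to 46536051, plus strand), the main long-chain synthetase of adipocytes, was at 460.0 to 501 CPM with a median of 494.6 in numbers 1 and 4. It was at 252 to 288.5 CPM (median 277) in numbers 2 and 5 and at 297 to 381 CPM (median 363) in numbers 3 and 6, with no overlap between sets. Its log2 fold changes against numbers 1 and 4 were -0.83 ± 0.04 (edgeR adjusted p = 4.43e-16) and -0.48 ± 0.04 (edgeR adjusted p = 2.09e-11). Numbers 3 and 6 were above numbers 2 and 5 by 0.35 ± 0.04 (edgeR adjusted p = 9.35e-09).

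Acsl3 (chromosome 1, 78657825 to 78707743, plus strand), a synthetase of the endoplasmic reticulum and of lipid droplets, was at 130.0 to 139 CPM with a median of 135 in numbers 1 and 4. It was at 60.7 to 78.7 CPM (median 73.6) in numbers 2 and 5 and at 51.7 to 58.6 CPM (median 55.0) in numbers 3 and 6. No sets overlapped, and the last was 0.411 times the first, a log2 fold change of -1.28 ± 0.04 (edgeR adjusted p = 3.84e-20) that was the largest of the 9 members in any comparison. Numbers 2 and 5 were lower than numbers 1 and 4 by -0.91 ± 0.04 (edgeR adjusted p = 6.62e-17).

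Acsl4 (chromosome X, 142317993 to 142390535, minus strand), which prefers arachidonic acid, was at 94.7 to 104.5 CPM with a median of 98.9 in numbers 1 and 4. It was at 107 to 137 CPM (median 123) in numbers 2 and 5 and at 59.7 to 68.2 CPM (median 63.6) in numbers 3 and 6, again with no overlap. Like Lpl it was highest in numbers 2 and 5, with a log2 fold change of 0.33 ± 0.04 against numbers 1 and 4 (edgeR adjusted p = 8.07e-07). In numbers 3 and 6 it was -0.65 ± 0.04 against numbers 1 and 4 (edgeR adjusted p = 7.78e-12) and -0.97 ± 0.05 against numbers 2 and 5 (edgeR adjusted p = 7.25e-15). Acsl5 (chromosome 19, 55251938 to 55297720, plus strand), a synthetase of mitochondria and the endoplasmic reticulum, was at 85.5 to 107.5 CPM with a median of 89.9 in numbers 1 and 4. It was at 57.1 to 68.5 CPM (median 63.1) in numbers 2 and 5 and at 56.4 to 72.2 CPM (median 64.0) in numbers 3 and 6. Both sets were lower than numbers 1 and 4, by -0.54 ± 0.06 (edgeR adjusted p = 5.01e-07) and -0.51 ± 0.06 (edgeR adjusted p = 4.57e-07). They overlapped each other, and their difference was 0.02 with a 95% interval from -0.10 to 0.15.

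**Figure D3:**
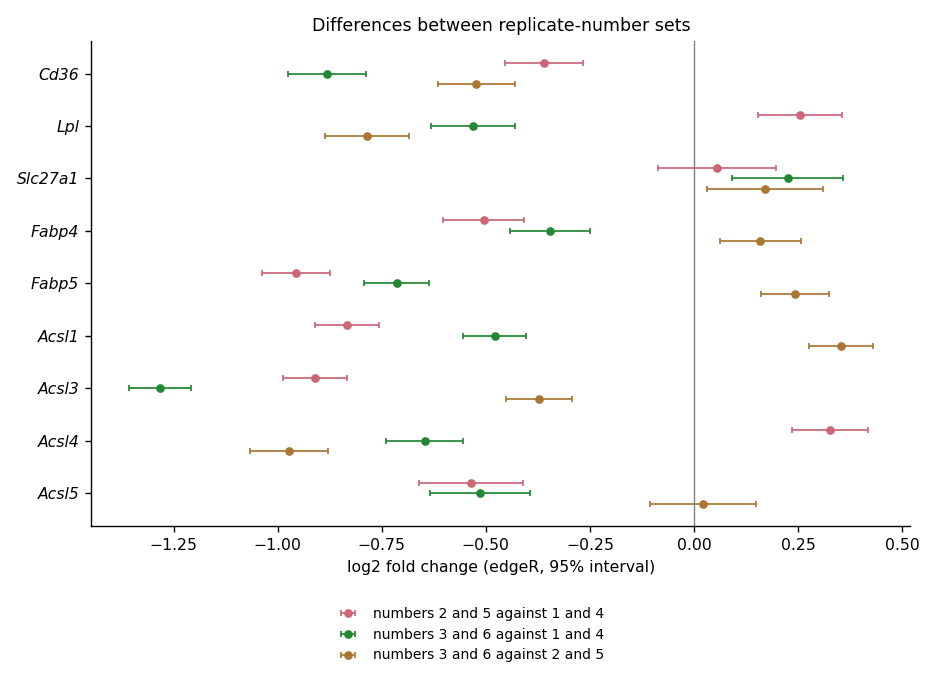
Log2 fold changes of the 9 tested genes between sets of replicate numbers (horizontal axis; points are edgeR estimates, bars 95% intervals). Lpl and Acsl4 lie above 0 in numbers 2 and 5 against 1 and 4 and below 0 in both comparisons of numbers 3 and 6, while Fabp5, Acsl1 and Acsl3 lie at -0.96, -0.83 and -0.91 in numbers 2 and 5 against 1 and 4.

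In numbers 2 and 5 against 1 and 4, 8 of the 9 members were called, 2 higher and 6 lower, where 60.1% of all genes tested were called (29.8% higher and 30.3% lower). In numbers 3 and 6 against 1 and 4 all 9 were called, 1 higher and 8 lower, against 60.3% of all genes (30.5% higher and 29.8% lower). In numbers 3 and 6 against 2 and 5, 8 were called, 4 each way, against 57.6% (28.8% either way). Since most genes of the table were called, the count of members by itself says little. The members' median log2 fold change was -0.51 and -0.53 against numbers 1 and 4 and 0.02 between the other sets, where the median over all genes was -0.0038, 0.0044 and 0.0025. Their median absolute log2 fold change was 0.51, 0.53 and 0.35, against 0.24, 0.24 and 0.23 over all genes. Ranges did not overlap for 8, 8 and 5 members, against 35.3%, 38.6% and 29.8% of genes. Contrasts of the lower and of the higher numbers were also taken, from the same fit of all libraries. Both gave the same call for 8, 8 and 5 members, against 38.4%, 38.4% and 34.1% of genes. The sets were proposed because these numbers were alike in these data. Agreement within a set, here and next, was therefore built in and does not test the sets. Within a set no member was called (number 4 against 1, 5 against 2 and 6 against 3), nor were more than 0.00676%, 0.0% and 0.0% of all genes; 431, 886 and 1731 of 14788 genes had an unadjusted p under 0.05 there. Among the members 0, 1 and 4 did: Acsl3 in number 5 against 2 (log2 fold change -0.18), and Cd36 (-0.20), Fabp4 (-0.21), Fabp5 (-0.18) and Acsl1 (-0.14) in number 6 against 3, with edgeR adjusted p from 0.196 to 0.738. Without 24 h replicate 5 no member's log2 fold change between sets moved by more than 0.0348 (Acsl4 in numbers 3 and 6 against 2 and 5), and the counts of members called were again 8, 9 and 8.

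The calls depended on scaling the library totals. Unscaled totals include those counts of Yam1 and Gm26917 in 24 h replicate 5. That library is in numbers 2 and 5. It belongs to neither set in numbers 3 and 6 against 1 and 4, but it enters the fit of all 18 libraries behind each comparison. Its part in the lost calls was not tested. With unscaled totals the median log2 fold change of all genes was -0.10, 0.17 and 0.26 in the 3 comparisons, for reasons not tested. The calls over all genes were then 1221 higher and 2304 lower, 3145 higher and 1055 lower, and 4183 higher and 651 lower, against 4408 and 4477, 4503 and 4410, and 4264 and 4259 with scaling. Of the members 0 were then higher and 6 lower, 0 higher and 4 lower, and 3 higher and 2 lower. The rises of Lpl and Acsl4 in numbers 2 and 5 were no longer called (edgeR adjusted p = 0.651 and 0.421). In numbers 3 and 6 the calls of Lpl, Slc27a1, Fabp4, Acsl1 and Acsl5 against numbers 1 and 4 were lost (edgeR adjusted p from 0.0903 to 0.509), as were those of Cd36, Fabp4 and Acsl3 against numbers 2 and 5 (0.311, 0.0612 and 0.713). Relative to the median gene of the same comparison, each of the 9 members kept its direction in all 3 comparisons: Lpl and Acsl4 stood at 0.24 and 0.32 in numbers 2 and 5 against 1 and 4, and Acsl3 at -0.93. Taking off the median is itself a scaling, so this is not a separate check of the calls.

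The 4 synthetase genes also shifted relative to each other. As shares of the 4 genes' summed CPM per kilobase of exon, Acsl4 made up 16.02 ± 0.433% (SD, n = 6) in numbers 1 and 4, 29.1 ± 1.69% in numbers 2 and 5 and 16.6 ± 1.53% in numbers 3 and 6. Its lowest library in numbers 2 and 5, at 27.4%, was above the highest of the other sets, at 18.9%. Acsl1 made up 40.7 ± 1.42%, 33.4 ± 0.984% and 47.2 ± 1.82%, so that it had the largest share in each set. Acsl3 went from 26.96 ± 0.421% to 20.8 ± 1.10% and 17.8 ± 0.773%. Acsl5 stayed between 15.2% and 20.0% in all 18 libraries. With the longest transcript as the length the Acsl4 shares were 11.7%, 22.3% and 11.8%, and those of Acsl1 53.6%, 46.2% and 60.1%.

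**Figure D4:**
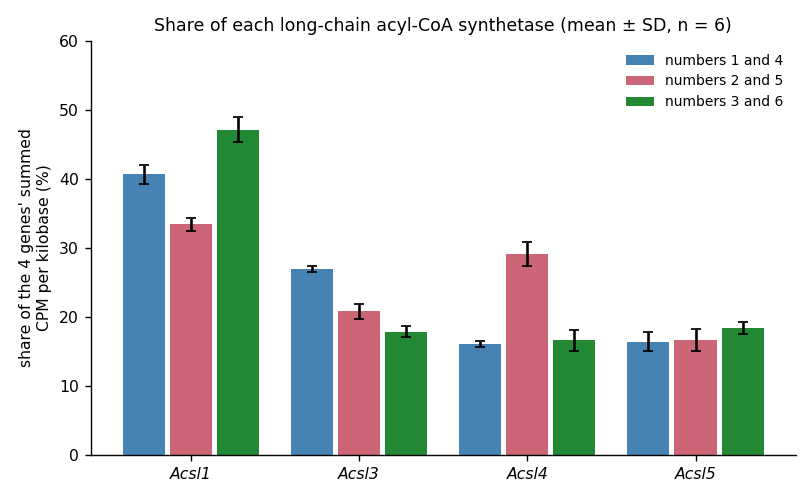
Share of each of the 4 long-chain acyl-CoA synthetases in their summed CPM per kilobase of exon (vertical axis, %), by set of replicate numbers. Bars are means of 6 libraries and error bars SD. The Acsl4 share is 29.1% in numbers 2 and 5 against 16.02% and 16.6% in the other sets, and Acsl1 has the largest share in each set.

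Over the 18 libraries, which share the 3 sets and are therefore not independent points, some members had a like course. Pearson's r of log2 CPM was 0.953 for Lpl and Acsl4 and 0.923 for Cd36 and Acsl3. It was 0.952 for Fabp4 and Fabp5, 0.969 for Fabp5 and Acsl1 and 0.935 for Fabp4 and Acsl1. These pairs did not form separate groups: r was 0.901 for Acsl5 and Fabp5, 0.888 for Acsl5 and Acsl3, 0.844 for Acsl3 and Fabp5 and 0.749 for Cd36 and Lpl. Lpl and Fabp4, the 2 most abundant members, had an r of -0.04. Among 9454 genes with a mean log2 CPM of at least 3, those most like Cd36 were Sel1l (r = 0.988), which encodes an adaptor of endoplasmic reticulum-associated degradation that lipoprotein lipase also needs to leave that compartment, Hfe (0.985) and Derl1 (0.984). Those most like Lpl were Zfp91 (0.987), Clk1 (0.986) and the monocarboxylate transporter gene Slc16a1 (0.984). Those most like Acsl1 were Plin1 (0.984), which encodes the lipid droplet protein perilipin 1, Nnmt (0.983) and Map3k1 (0.981).

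Genes around each step are given by lists that were drawn up with earlier results of these data known. Of all genes tested, 60.1%, 60.3% and 57.6% were called in the 3 comparisons of sets, with 28.8% to 30.5% each way. List counts near these shares say little by themselves. Of 13 genes that fold, anchor or control lipoprotein lipase, 10 were tested, and 5 were higher and 5 lower in numbers 2 and 5 against 1 and 4. Of these, 4 were higher and 5 lower in numbers 3 and 6 against 1 and 4, and 3 higher and 5 lower against numbers 2 and 5. Angptl4, whose product inhibits the lipase, was at 161 ± 18.6, 214 ± 37.1 and 342 ± 32.1 CPM in the 3 sets (SD, n = 6), and rose in both steps. In numbers 2 and 5 against 1 and 4 it rose by 0.42 ± 0.12 in log2 (edgeR adjusted p = 0.0101), where Lpl also rose, and in numbers 3 and 6 against 2 and 5 by 0.67 ± 0.12 (edgeR adjusted p = 0.000491), where Lpl fell. Angptl8, another inhibitor of the family, was lower in both other sets than in numbers 1 and 4, by -1.94 ± 0.27 and -2.17 ± 0.26 (edgeR adjusted p = 1.13e-06 and 8.91e-08), at levels of 2.79 CPM or less. Apoc2, the activator of the lipase, had log2 fold changes of 1.56 ± 0.41 and 1.75 ± 0.38 (edgeR adjusted p = 0.00217 and 0.000296) but did not exceed 0.794 CPM, and Apoc3, at most 2.75 CPM, differed by -0.99 ± 0.25 between numbers 3 and 6 and numbers 2 and 5 (edgeR adjusted p = 0.00165). Gpihbp1, the anchor of the lipase on capillary endothelium, had no count in any library.

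Of 14 tested genes of CD36 trafficking and caveolae, the membrane pits where CD36 gathers, 3 were higher and 7 lower in numbers 2 and 5 against 1 and 4. Next, 2 were higher and 8 lower in numbers 3 and 6 against 1 and 4, and 4 higher and 8 lower against numbers 2 and 5. Cav1, the main coat protein gene of caveolae, was at 633 ± 19.1, 551 ± 55.8 and 372 ± 20.6 CPM in the 3 sets (SD, n = 6) and fell with Cd36 from numbers 2 and 5 to numbers 3 and 6, with a log2 change of -0.57 ± 0.05 (edgeR adjusted p = 5.86e-09). Cavin2, another coat component, was at 181 ± 5.35, 84.5 ± 4.40 and 103 ± 6.17 CPM, with log2 fold changes of -1.10 ± 0.03 and -0.82 ± 0.03 against numbers 1 and 4 (edgeR adjusted p = 4.56e-19 and 5.38e-17). The largest rises were of scarce transcripts. Cavin4, at most 3.48 CPM, differed by 0.93 ± 0.19 and 0.77 ± 0.18 from numbers 1 and 4 (edgeR adjusted p = 0.000145 and 0.000646), and Lyn, at most 2.66 CPM, by 0.40 ± 0.13 between numbers 3 and 6 and numbers 2 and 5 (edgeR adjusted p = 0.0139).

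Of 14 other transport and binding protein genes only 6 were tested, with 2 higher and 2 lower, 0 higher and 4 lower, and 1 higher and 2 lower in the 3 comparisons. Slc27a3, a relative of Slc27a1, was at 4.11 ± 0.348, 7.98 ± 0.981 and 4.62 ± 0.429 CPM (SD, n = 6), and so was highest in numbers 2 and 5, by 1.00 ± 0.09 against numbers 1 and 4 (edgeR adjusted p = 8.55e-10). From there it fell by 0.82 ± 0.09 to numbers 3 and 6 (edgeR adjusted p = 2.1e-08). Slc27a4 was at 60.5 ± 2.76, 39.9 ± 3.49 and 46.6 ± 3.38 CPM and rose by 0.21 ± 0.05 between the last 2 sets (edgeR adjusted p = 0.000599). Fabp9, at most 1.27 CPM, was lower than in numbers 1 and 4 by -2.09 ± 0.33 and -1.70 ± 0.28 (edgeR adjusted p = 4.66e-06 and 1.05e-05).

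Of 14 other acyl-CoA synthetase genes 7 were tested, with 2 higher and 3 lower, 2 higher and 4 lower, and 3 higher and 2 lower. Acss2, the cytosolic acetyl-CoA synthetase, was at 59.9 ± 4.18 CPM in numbers 1 and 4 and at 25.9 ± 1.98 and 25.9 ± 1.15 CPM in the other sets (SD, n = 6), log2 changes of -1.22 ± 0.05 and -1.21 ± 0.05 (edgeR adjusted p = 1.45e-16 and 4.6e-17) that left both sets at like levels. Acss3 was highest in numbers 2 and 5, at 19.0 ± 1.52 CPM against 12.5 ± 1.34 and 10.9 ± 1.38, with differences of 0.63 ± 0.07 from numbers 1 and 4 and -0.82 ± 0.07 from there to numbers 3 and 6 (edgeR adjusted p = 2.64e-08 and 2.97e-10). Acsm3 (at most 3.64 CPM) rose by 1.26 ± 0.18 in numbers 3 and 6 against 1 and 4 (edgeR adjusted p = 1.25e-06). Acsl6 (at most 2.04 CPM), the remaining long-chain synthetase, rose by 0.80 ± 0.27 in numbers 3 and 6 against 2 and 5 (edgeR adjusted p = 0.0149).

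Of 20 genes that bind or hydrolyse acyl-CoA 13 were tested, with 3 higher and 8 lower, 1 higher and 10 lower, and 2 higher and 4 lower. Acot2, a mitochondrial thioesterase that releases fatty acids from coenzyme A, was at 53.9 ± 1.68, 52.4 ± 7.25 and 20.9 ± 1.65 CPM (SD, n = 6) and changed in numbers 3 and 6 by -1.37 ± 0.05 against numbers 1 and 4 and -1.36 ± 0.05 against numbers 2 and 5 (edgeR adjusted p = 6.05e-17 and 2.4e-16). Acot9 rose by 0.36 ± 0.05 in numbers 2 and 5 (edgeR adjusted p = 1.95e-06) and Acbd3 by 0.11 ± 0.04 in numbers 3 and 6 against numbers 1 and 4 (edgeR adjusted p = 0.00969). Acot11, at most 1.07 CPM, differed by -1.86 ± 0.31 in numbers 2 and 5 against 1 and 4 and by 0.98 ± 0.34 in numbers 3 and 6 against 2 and 5 (edgeR adjusted p = 1.15e-05 and 0.0163).

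All 19 genes of the fatty acid-sensing nuclear receptors and their partners were tested, with 10 higher and 6 lower, 4 higher and 6 lower, and 4 higher and 9 lower. Ppara, the receptor of oxidation genes, was at 22.0 ± 1.46, 29.9 ± 2.68 and 43.0 ± 3.38 CPM (SD, n = 6), a rise of 0.97 ± 0.05 from the first to the last set (edgeR adjusted p = 5.57e-14). Nr1h3, the oxysterol receptor LXR alpha, was at 20.0 ± 0.972, 15.3 ± 0.857 and 12.1 ± 0.566 CPM and fell by 0.71 ± 0.05 over the same sets (edgeR adjusted p = 1e-11). Cebpa, an adipogenic factor, rose by 0.63 ± 0.09 in numbers 2 and 5 against 1 and 4 (edgeR adjusted p = 6.37e-05). Rxrg fell by 0.85 ± 0.11 there and rose by 0.86 ± 0.11 in numbers 3 and 6 against 2 and 5 (edgeR adjusted p = 1.42e-07 and 1.39e-07), and Cebpd fell by 0.79 ± 0.07 in the latter comparison (edgeR adjusted p = 1.35e-09). In the 3 comparisons of labelled times none of the genes in these 6 lists was called.

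Markers of cell types moved with the sets, and their part in the results was not tested. Of 12 preadipocyte and fibroblast markers 11 were tested, and 9, 11 and 8 of them were higher, with none lower, in the 3 comparisons. Of all genes tested, 29.8%, 30.5% and 28.8% were called higher there and 30.3%, 29.8% and 28.8% lower. Their summed level was 1740 to 1973 CPM in numbers 1 and 4, 2528 to 3387 CPM in numbers 2 and 5 and 3231 to 3995 CPM in numbers 3 and 6. In bulk RNA, fewer cells of a type and less RNA per cell cannot be told apart. The 12 brown adipocyte markers, all tested, did not move 1 way: 4 were higher and 6 lower, 5 and 5, and 7 and 2, with summed levels of 1548 to 1658, 1479 to 1702 and 1644 to 2003 CPM. Ucp1, the uncoupling protein, was at 15.8, 10.5 and 1.81 CPM in the 3 sets, the adipokine gene Adipoq at 443, 594 and 773 CPM, and Plin1 at 378, 108 and 176 CPM. Pparg, which encodes the main adipogenic nuclear receptor, was at 133, 142 and 130.0 CPM. Lipe was at 278, 302 and 309 CPM, Cebpa at 191, 294 and 259 and Ebf2 at 94.5, 94.1 and 106. Adrb3 was at 43.0, 26.7 and 93.3 CPM, Prdm16 at 15.2, 7.76 and 10.2 and Cidea at 14.2, 13.9 and 15.2. Plin5, at 3.95, 1.87 and 2.93 CPM, and Dio2, at 2.44, 0.273 and 0.517 CPM, were scarce in each set. Adipocyte markers were thus present, but several of the 12 were low in each set, and Ucp1 was lowest in numbers 3 and 6. Of other cell types, 8 macrophage markers summed to 2.98 to 5.55 CPM with Adgre1 at 0, 8 endothelial markers to 0.663 to 1.84 CPM with Cdh5 and Gpihbp1 at 0, and 9 muscle markers to 0.584 to 4.35 CPM with Myod1 at 0 and most of the sum in Acta1.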

How the data were processed

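Total RNA of 18 libraries (250 ng input, ribosomal depletion, strand selection, 52-base paired reads) was measured. The table the authors deposited holds salmon expected counts per gene, merged over libraries, as its header shows; 27.4% of the values above 0 are not whole. The submitters' processing notes name mm10, edgeR and limma without versions. Which annotation, strand setting and salmon version were used is not given in the sources used here, so reads of overlapping genes on opposite strands may not be told apart. Copies named after members, Fabp3-ps1 and Fabp5l2, hold 5.05 and 7.36 counts over all libraries.

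Expected counts were rounded and fitted with edgeR 4.0.16 (R 4.3.3, limma 3.58.1; robust quasi-likelihood F-test, TMM scaling, filterByExpr with a minimum count of 10 and a minimum total of 15), which kept 14788 genes and at least 99.9% of each library's counts. Labelled times were compared without further terms. Sets were compared as means of 2 numbers in a model of number and labelled time. The script was tested on simulated data. DESeq2 1.42.0 was an alternative, with other scalings, no filter, no time term, lower or higher numbers alone, and each library left out. Lower or higher numbers alone were contrasts of the same fit of all libraries. Correlations used log2 CPM with a prior count of 2. Intervals are 95% intervals. Positions and lengths come from GENCODE M21, which holds 45143 of the 45706 gene identifiers. Lists matched 143 of 144 entries.

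Same-numbered libraries of different times deviated together: all 18 pairs had a correlation of their deviations from the time means above 0.1 (0.298 to 0.718, median 0.590), as did the other number of the same set (median 0.569), against a median of -0.27 for other sets. The pairing comes from the numbers in the titles. The correlations were nearly as high for the other number of a set, so they do not single out libraries of the same number as pairs. What a number stands for is not said in the labels.

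The members, the lists and the sets were chosen with earlier results of these data known. Named genes are all members and, of each list and set comparison, the called genes with the largest rise and the largest fall. For Cd36, Lpl and Acsl1 the 3 most correlated genes are also named (Fabp3, not in the main fit, has none). Angptl4, Cav1 and the other list genes follow that rule; levels of Gpihbp1, Pparg and the markers were added as background.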

Additional observations from a re-analysis of the deposited data

Results flagged for a closer look

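In 60 groups of 6 libraries (10 genes by 3 labelled times and by 3 sets), 3 values stood apart by Dixon's 95% critical value, which chance passes in about 1 group in 20. Acsl1 was at 460.0 CPM in 24 h replicate 4, the lowest of numbers 1 and 4, where the next library was at 488 CPM. Acsl5 was at 107.5 CPM in the same library, the highest of that set, where the next was at 90.1 CPM. That library had 11258673 counts, with 10.6% on Yam1 and Gm26917. Fabp3 was at 0.506 CPM in 0 h replicate 1, against 0.334 CPM in the next library labelled 0 h, from 13.5 and 8 counts.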

How the results depend on the processing

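Between sets, 474 of 486 member fold changes kept direction and call with 1 library left out, and 172 of 189 under the other alternatives. With unscaled totals the genes called fell to 3525, 4200 and 4834, and the members called to 4 of 9 in numbers 3 and 6 against 1 and 4 and 5 of 9 against numbers 2 and 5; Slc27a1 turned to -0.0505 in numbers 2 and 5 against 1 and 4. With the higher numbers alone 5 members were called in numbers 3 and 6 against 2 and 5, and Acsl5 turned to -0.0078 there. With 1 library left out, Slc27a1 in numbers 2 and 5 against 1 and 4 ranged from -0.0048 to 0.091, and Acsl5 in numbers 3 and 6 against 2 and 5 from -0.0399 to 0.057. Neither difference was called in any of these. The cause was not tested.

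The replicate block (pairing by number) changed the count of genes called from 0 to 1 at 24 h against 0 h, and changed no other call; under it Acsl4 turned to 0.0201 at 24 h against 0 h and to 0.013 at 24 h against 4 h. Without 4 h replicate 3, 1 gene was called at 4 h against 0 h and at 24 h against 4 h, so these counts ranged from 0 to 1. Between labelled times signs changed in 109 of 621 fits of uncalled members. Acsl3 at 4 h against 0 h became 0.0049 with DESeq2, 0.0018 without the filter and 0.0063 with DESeq2's size factors. Unscaled totals turned Acsl4 at 4 h against 0 h to -0.0066, Slc27a1 and Acsl5 at 24 h against 0 h to -0.0703 and -0.12, and Slc27a1, Fabp4 and Acsl5 at 24 h against 4 h to -0.15, -0.11 and -0.13. With 1 library left out, ranges crossed 0 at 4 h against 0 h for Cd36 (-0.065 to 0.13), Lpl (-0.13 to 0.085), Fabp4 (-0.12 to 0.019), Fabp5 (-0.16 to 0.10), Acsl1 (-0.13 to 0.059), Acsl3 (-0.18 to 0.17), Acsl4 (-0.10 to 0.11) and Acsl5 (-0.0495 to 0.10). At 24 h against 0 h they did for Cd36 (-0.16 to 0.045), Lpl (-0.15 to 0.023), Fabp4 (-0.086 to 0.047), Fabp5 (-0.19 to 0.075), Acsl3 (-0.22 to 0.13), Acsl4 (-0.15 to 0.087) and Acsl5 (-0.0796 to 0.13). At 24 h against 4 h they did for Cd36 (-0.19 to 0.021), Lpl (-0.15 to 0.069), Slc27a1 (-0.013 to 0.0803), Fabp4 (-0.035 to 0.094), Fabp5 (-0.16 to 0.11), Acsl1 (-0.19 to 0.018), Acsl3 (-0.22 to 0.14), Acsl4 (-0.16 to 0.092) and Acsl5 (-0.10 to 0.10). Levels per kilobase moved beyond 1 SD with the longest transcript for Lpl (1024), Acsl1 (65.6) and Slc27a1 (10.1). Depth limits Fabp3 most.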
